A study of Mus musculus with 10 samples.

Results

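The wild-type (WT) neural stem and progenitor cells (NSPCs) of mouse brain were measured by poly(A) RNA sequencing in 3 libraries, of 10 samples in the whole series. These 3 were chosen by their labels alone, genotype WT and assay RNA-seq, and no comparison with the knockout samples of the series is made. The labels give brain as the tissue, NSPCs as the cell type and "non" as the treatment. The sources used here give no strain, age, brain region, passage or culture medium. Nor do they say whether each library had its own animal or culture, so the spread among them may be technical. The question was which cells these libraries resemble: which genes were most abundant, and which stem cell, glial, neuronal and regional genes were present or absent.

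Neural stem cells line the ventricles of the brain and can renew themselves or give rise to neurons, astrocytes and oligodendrocytes. Kept in culture with EGF and FGF2, they divide and commonly hold the intermediate filaments nestin and vimentin, the transcription factor SOX2 and the matrix protein tenascin C. Chromatin enzymes and patterning factors, which record the part of the neural tube a cell came from, act with receptors for growth factors, Notch ligands and Wnt proteins to set whether such cells divide or differentiate.

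The libraries held 23562986 (WT 1), 25184724 (WT 2) and 25939376 counts (WT 3) over 57180 genes. Levels are given as TPM, which divides each count by gene length, scales every library to the same total and so allows levels to be compared between genes. A gene was called expressed at 1 TPM or more in each of the 3 libraries, near 0 below 0.1 TPM in each, and low otherwise. Of all genes, 12985 (22.7%) were expressed and 31900 had 0 counts in all 3 libraries. Of 20759 genes that RefSeq lists as protein-coding, 11645 (56.1%) were expressed. These shares are the background against which the counts of each list below are read, and no list was tested for enrichment. Because the samples are bulk RNA, fewer cells of a type and less RNA per cell cannot be told apart. A count of 0 allows up to 3 counts, and this limit covers counting error only.

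The 4 genes taken here as markers of neural stem cells were all abundant. Vim (ENSMUSG00000026728), the filament protein vimentin, measured 2337 TPM in WT 1, 1816 in WT 2 and 1930 in WT 3, or 2028 ± 274 TPM (SD, n = 3), and ranked 34 among all genes. Nes (ENSMUSG00000004891), which encodes nestin, measured 315, 198 and 273 TPM in the same order, with a mean of 262 ± 59.0 TPM. For both genes WT 2 was the lowest library and WT 1 the highest. Sox2 (ENSMUSG00000074637), a transcription factor that keeps stem cells undifferentiated, measured 219, 161 and 198 TPM (193 ± 29.4). Tnc (ENSMUSG00000028364), tenascin C, measured 138, 118 and 142 TPM (133 ± 12.8). Each of the 4 markers was thus present in each library, and the lowest value of any of them was that of Tnc in WT 2. The labels name no markers, and these 4 were chosen with earlier results of these data known. Their presence is therefore no test of the labelled cell type.

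The promoters of these 4 genes, and of 3 further genes that the results turn on, are shown to let a reader see how unlike they are. Each line gives the 120 bases before the RefSeq start on GRCm38.p6, 5′ to 3′ on the strand of the gene. Capitals mark exact matches, on either strand, to the TATA box with the letters TATAAA, to the box with the letters CCAAT, to the box of SP1-like factors with the letters GGGCGG, or to the core of RBPJ, the Notch effector, with the letters TGGGAA.
Nes (chr3:87970973-87971092, plus strand): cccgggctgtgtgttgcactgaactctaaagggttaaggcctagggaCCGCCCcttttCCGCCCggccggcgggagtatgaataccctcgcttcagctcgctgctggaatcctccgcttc
Vim (chr2:13574191-13574310, plus strand): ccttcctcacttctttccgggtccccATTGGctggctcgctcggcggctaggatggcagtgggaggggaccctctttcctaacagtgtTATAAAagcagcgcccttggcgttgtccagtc
Sox2 (chr3:34649875-34649994, plus strand): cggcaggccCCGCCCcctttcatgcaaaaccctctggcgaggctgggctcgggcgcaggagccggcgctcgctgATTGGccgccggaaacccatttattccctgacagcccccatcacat
Tnc (chr4:64047016-64047135, minus strand): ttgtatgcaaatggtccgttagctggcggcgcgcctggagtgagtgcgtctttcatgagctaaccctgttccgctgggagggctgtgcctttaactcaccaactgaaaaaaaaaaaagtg
Fabp7 (chr10:57784803-57784922, plus strand): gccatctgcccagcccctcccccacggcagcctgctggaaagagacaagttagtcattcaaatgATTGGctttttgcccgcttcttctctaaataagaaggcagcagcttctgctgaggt
Hes5 (chr4:154960803-154960922, plus strand): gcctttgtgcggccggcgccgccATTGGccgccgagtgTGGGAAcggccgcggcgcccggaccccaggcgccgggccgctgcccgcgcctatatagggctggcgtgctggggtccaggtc
Olig2 (chr16:91225430-91225549, plus strand): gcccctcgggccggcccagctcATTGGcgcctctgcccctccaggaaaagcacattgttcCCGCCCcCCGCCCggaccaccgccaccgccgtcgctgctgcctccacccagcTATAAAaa
The only TATAAA match near the usual distance from a start is that of Vim, which begins 32 bases before it. In Olig2 the same letters begin 8 bases before the start. Hes5, a Notch target, holds a TGGGAA match that begins 82 bases before its start. The window of Tnc shown here holds none of the 4 motifs. RefSeq lists a second start for Tnc, whose window is not shown and holds a TGGGAA match that begins 81 bases before that start. No match in these lines overlaps another.

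Over windows of 300 bases (250 before the start and 50 after it), letters of this kind, counted on either strand, are common. Of 13910 protein-coding genes with 1 RefSeq start, 13.8% hold TATAAA, 39.2% CCAAT, 46.8% GGGCGG and 24.5% TGGGAA. Among the 7433 of these genes that were expressed, 68.8% hold GGGCGG and 6.24% TATAAA. Among the 4562 near 0, the shares are 13.5% and 26.3%. The median ratio of observed to expected CpG, a measure of CpG islands, was 0.796 for promoters of expressed genes and 0.175 for those near 0. The shares with TGGGAA were 22.6% and 26.9%. A match describes letters only.

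The wider list of neural stem and radial glia genes was nearly complete, with 27 of 28 members expressed (96.4%) and a median of 95.8 TPM. The median over all genes was 0 TPM, and over protein-coding genes 4.23 TPM. Fabp7, the brain lipid-binding protein of radial glia, was the highest member with 3817, 4861 and 4283 TPM. It was the only one of the 10 highest members in which WT 1 was lowest and WT 2 highest. Slc1a3, the glial glutamate transporter GLAST, followed with 1251 ± 73.1 TPM, and Ptprz1, a receptor phosphatase of glial progenitors, with 822 ± 108 TPM. Msi2 (212 ± 21.6 TPM) was about as high as Ntrk2 and Sox2, and the ranges of these 3 genes overlapped. Its relative Msi1, an RNA-binding protein too, was lower at 41.9 ± 12.2 TPM, with no overlap between their libraries.

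At the lower end of that list stood 2 genes behind surface antigens used to sort such cells. Prom1, which encodes CD133, reached only 1.12, 1.11 and 1.5 TPM. Fut4, an enzyme that can make the LewisX (CD15) epitope, was low at 0.711, 0.485 and 0.704 TPM, from 23 to 32 counts per library. RNA levels do not measure the epitopes themselves.

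**Figure D1:**
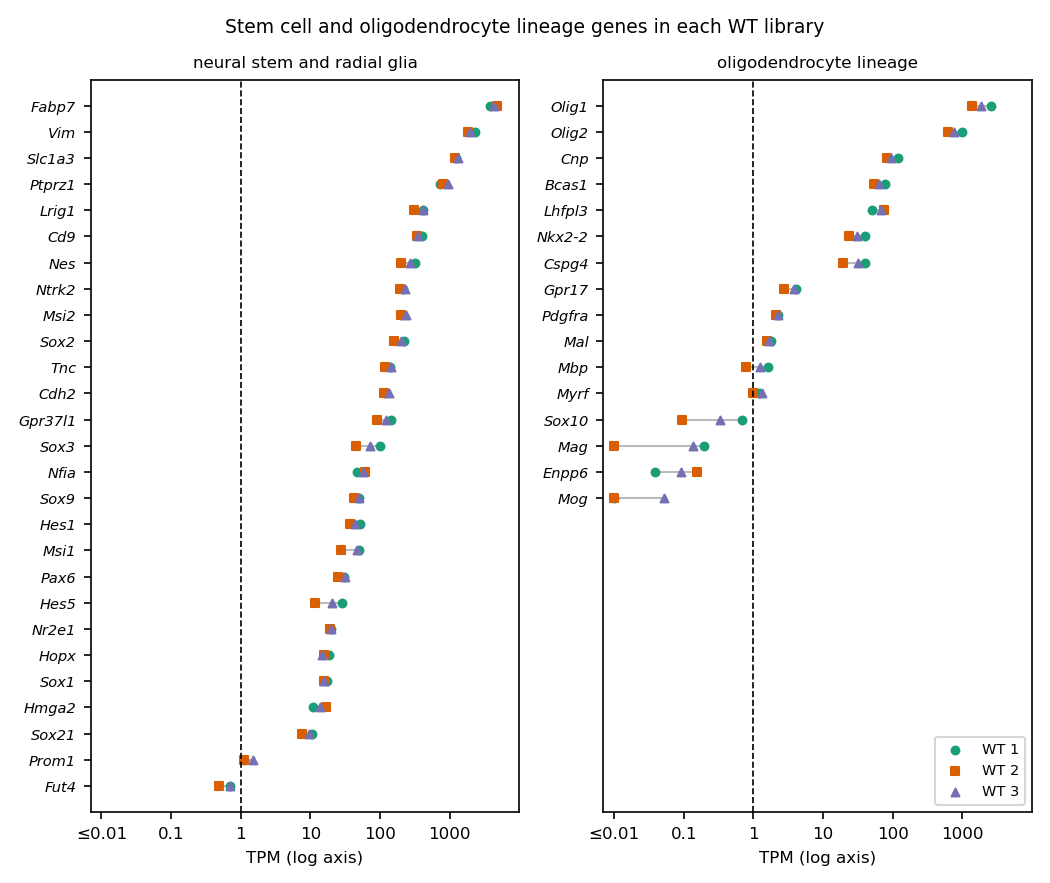
TPM (horizontal log axis; values under 0.01 are drawn at 0.01) of genes of the stem cell list (left, 27 shown) and the oligodendrocyte lineage list (right, 16 shown) in WT 1 (circles), WT 2 (squares) and WT 3 (triangles), with a dashed line at 1 TPM. Stem cell genes other than Prom1 and Fut4 lie well to the right of the line, while the oligodendrocyte genes run from Olig1 at 1928 TPM to Mog at or near 0.

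The most abundant nuclear genes, with ribosomal protein, predicted and clone-named genes left out, were of several kinds. The highest was Eef1a1, the elongation factor that brings tRNAs to the ribosome, with 11187 ± 146 TPM. Ckb, brain creatine kinase, came next with 11541, 7056 and 9322 TPM. WT 1 was the highest and WT 2 the lowest library for Ckb, and its range overlapped with that of Eef1a1. Among the 25 highest such genes, several mark glia or their progenitors: Fabp7, the serine protease inhibitor Serpine2 (4052 ± 88.7 TPM), the secreted growth factor Ptn (2769 ± 129 TPM), Dbi (2480 ± 146 TPM), whose peptide binds GABA-A receptors, and Vim. Others are parts of the actin and tubulin skeleton, with Cfl1 at 4345 ± 376 TPM, Actg1 at 3753 ± 257 TPM and Tuba1a at 3511 ± 279 TPM. The glycolytic enzymes Gapdh (3463 ± 753 TPM), Pkm (2961 ± 580 TPM) and Eno1 (2651 ± 576 TPM) also belong to the 25. All 21 members of the glycolysis list were expressed, 20 of them lowest in WT 2 and 19 highest in WT 1, against 55.7% and 44.5% of all expressed genes. The neuronal enolase Eno2 was the lowest of them at 3.94 ± 0.973 TPM.

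The 100 most expressed genes held 28.1% ± 3.12 of all TPM, and 92 cytosolic ribosomal protein genes, 85 of them expressed, held 6.09% ± 0.701. The share of the 37 genes of the mitochondrial genome differed between libraries, with 4.01% of TPM in WT 1, 9.50% in WT 2 and 6.26% in WT 3. A further 36 predicted nuclear genes that resemble them, led by Gm28661, Gm28437 and Gm10925, held 4.33% ± 1.67. Reads of mitochondrial genes and of such near-identical copies could be split by the counting, so the levels of single members of both groups are uncertain. Since TPM sums to a fixed total, a larger mitochondrial share lowers every other gene's TPM in that library. Its part in the differences between libraries below was not tested gene by gene. WT 2 was the lowest library for 7235 of the 12985 expressed genes (55.7%), and WT 1 for 4416 (34.0%).

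Genes of astrocytes were as evenly present as those of stem cells, with 19 of 20 expressed (95%) and a median of 201 TPM. Radial glia and adult neural stem cells share many of these genes with astrocytes. Aldoc, a brain isoform of aldolase, measured 1417, 1003 and 1222 TPM. Apoe, the lipid carrier, measured 1538, 691 and 1231 TPM, so WT 2 lay far below the other 2 libraries. Aldh1l1, a folate enzyme used as a pan-astrocyte marker, measured 658 ± 133 TPM and Mlc1, a membrane protein of astrocyte endfeet, 693 ± 88.7 TPM. Acsbg1 (814 ± 188 TPM), Atp1b2 (926 ± 68.5 TPM), S100b (204 ± 10.5 TPM), the glutamine synthetase gene Glul (197 ± 39.8 TPM) and the potassium channel Kcnj10 (193 ± 30.6 TPM) were abundant too. Gfap, the glial filament protein, measured 91.5, 61.5 and 78.5 TPM (77.2 ± 15.0), which is below Vim in every library. The water channel Aqp4 measured 26.8 ± 5.88 TPM and the glutamate transporter Slc1a2 (GLT-1) 47.9 ± 6.18 TPM, far below Slc1a3. Gjb6, the connexin 30 gene, was low at 0.557 ± 0.0541 TPM, while Gja1, the connexin 43 gene, stood at 171 ± 25.4 TPM.

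Genes of dividing cells were abundant. All 24 genes of the proliferation list were expressed, from E2f1 at 23.2 ± 3.48 TPM to Pcna, the replication clamp, at 520 ± 63.4 TPM. Mki67, the gene of the Ki-67 antigen, measured 142, 146 and 168 TPM and Top2a, a topoisomerase of dividing cells, 290, 306 and 339 TPM. In both, WT 3 was the highest library. With a median coefficient of variation (CV, the SD as a percent of the mean) of 9.50%, this list had a lower median than expressed genes in general (14%). The D-type cyclin Ccnd1 was the highest G1 gene at 1199 ± 101 TPM, above Ccnd2 (422 ± 24.4 TPM) and Ccnd3 (69.7 ± 12 TPM), with no overlap. The cell cycle inhibitor Cdkn1a (p21) was also high, with 1034, 748 and 841 TPM. Cdkn2a, the locus of p16 and p19ARF, measured 53.4 ± 14.4 TPM, whereas Cdkn1c (p57) stood at 1.11 ± 0.138 TPM and Mycn at 0.574 ± 0.0401 TPM. Myc itself measured 85.2 ± 17.8 TPM, with no overlap with Mycn.

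Olig1 and Olig2 of the oligodendrocyte lineage were the most abundant transcription factors by GO term. The other listed genes of that lineage, factors included, were lower. By GO term, 996 genes were DNA-binding transcription factors and 441 of them (44.3%) were expressed. The highest was Olig1 with 2558, 1368 and 1859 TPM (1928 ± 598), followed by Olig2 with 976, 625 and 757 TPM (786 ± 177). Both are basic helix-loop-helix factors of oligodendrocyte and ventral progenitors, and in both WT 1 was the highest and WT 2 the lowest library. Etv5, a target of FGF signalling, came next with 340 ± 48.9 TPM, then Zfp740, Nfe2l1 and Tfdp1 at 299 to 310 TPM on average. The ranges of these last 3 overlapped. Among the 15 highest, the GO terms also took in Pcbp1, Pa2g4 and Phb, which are better known for other roles, and the terms missed known factors such as Sox2, whose 193 TPM lay above the 188 TPM of Atf4, the last of the 15.

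Of 17 genes of the oligodendrocyte lineage, 11 were expressed (64.7%). Sox10, a factor that oligodendrocyte precursors need, was low with 19, 3 and 10 counts, or 0.676, 0.0950 and 0.330 TPM. Pdgfra, the receptor of such precursors, measured only 2.19 ± 0.0907 TPM, although Cspg4 (NG2) reached 30.3 ± 10.2 TPM and Nkx2-2 31.4 ± 8.02 TPM. Genes of myelin and its making differed widely. Cnp measured 98.8 ± 19.6 TPM, Bcas1 64.9 ± 11.6 TPM and Mal 1.67 ± 0.0986 TPM, Mbp and Myrf were low at 1.21 ± 0.417 and 1.17 ± 0.180 TPM, Mag had 4, 0 and 3 counts, and Mog had 1 count in WT 3 and none in the others.

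Neurogenic genes were mostly low. In the list of intermediate progenitors and neuroblasts, 8 of 23 members were expressed (34.8%), led by Cd24a (170 ± 18.2 TPM), a surface protein of neuroblasts, and Sox4 (106 ± 17.4 TPM). Dcx, doublecortin of migrating neuroblasts, measured 0.738, 0.936 and 0.460 TPM. Eomes (Tbr2) had 1 count in WT 1 and none in the others, Neurog2 had 1 count in WT 2, and Neurog1, Neurod2 and Dlx6 were at 0 in all 3. The ventral factors Dlx1 and Dlx2 were low at 0.545 ± 0.261 and 0.607 ± 0.239 TPM.

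Of 25 neuronal genes, 8 were expressed (32.0%) with a median over the list of 0.704 TPM. The 3 highest, Map2 (228 ± 34.3 TPM), Gap43 (168 ± 22.4 TPM) and Mapt (115 ± 15.9 TPM), encode cytoskeletal and growth cone proteins. Tubb3, the neuronal tubulin, measured 5.43, 3.13 and 4.32 TPM, and Rbfox3 (NeuN) 0.704 ± 0.144 TPM. Only 4 genes of the list had 0 counts in all 3 libraries. They serve glutamate (the transporter Slc17a6), GABA and glycine (Slc32a1), catecholamines (Th) and acetylcholine (Chat). Other listed genes of transmitter release, such as Slc17a7, Syp and Snap25, had counts in at least 1 library. Gad1, which makes GABA, measured 6.52 ± 0.843 TPM, against 0.241 ± 0.0645 TPM for Gad2.

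Markers of other cells that a brain culture could hold were mostly absent. Of 15 microglial genes, 2 were expressed, among them the lysosomal gene Cd68 (2.70 ± 0.367 TPM). Another 9, among them Cx3cr1, Aif1, Ptprc, Itgam and Trem2, had 0 counts in all 3 libraries. Of 13 endothelial and pericyte genes, 2 were expressed (Mcam and Flt1), and the junction genes Cldn5 and Cdh5 were at 0. Of 12 fibroblast, meningeal and smooth muscle genes, 3 were expressed, led by Foxc1 at 9.31 ± 1.14 TPM, while Col1a1, a fibroblast collagen, stood at 0.133 ± 0.0307 TPM. None of 6 erythroid genes and 2 of 11 pluripotency genes (Klf4 and Esrrb) were expressed, and Pou5f1 (Oct4) was at 0. Of 10 ependymal and choroid plexus genes, 4 were expressed. Foxj1, the master factor of motile cilia, measured 33.6, 16.2 and 25.1 TPM, but Ttr and Folr1 of the choroid plexus and Mcidas, which starts multiciliation, were at 0.

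**Figure D2:**
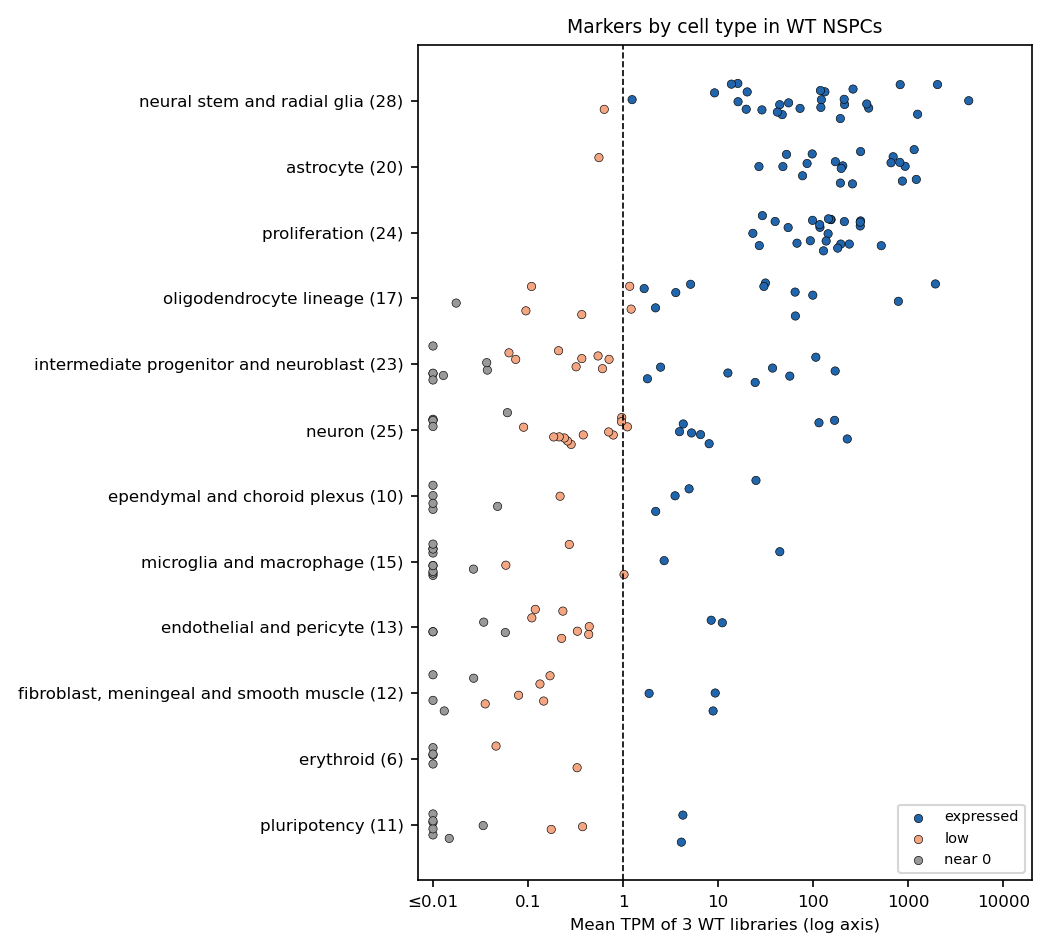
Mean TPM over the 3 WT libraries (horizontal log axis; values under 0.01 are drawn at 0.01) of each member of 12 marker lists, 1 point per gene, coloured as expressed, low or near 0, with a dashed line at 1 TPM and the number of members in brackets. Stem cell, astrocyte and proliferation genes lie almost entirely above the line, and most microglial, vascular, fibroblast, erythroid and pluripotency genes lie below it.

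Patterning factors of several brain regions were expressed. The shares of the 3 regional lists lay between 45.0% and 62.5%, near the 44.3% of all transcription factors and the 56.1% of protein-coding genes, so the shares say nothing particular about these lists. Of 16 factors of the telencephalon, 10 were expressed (62.5%). Nr2f1 (COUP-TF1), graded across the cortex, measured 41.6, 27.9 and 38.1 TPM, and Pax6, a factor of dorsal progenitors, 30.1, 25 and 31.5 TPM. Otx2, of forebrain and midbrain, measured 20.4 ± 2.28 TPM and Lhx2 6.07 ± 0.666 TPM. Emx2 was at 2.07 ± 0.336 TPM, and Emx1 had no count in any library. Nkx2-1, Lhx6 and Lhx8, which mark the medial ganglionic eminence, were at 0 too.

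Of 16 factors listed for the diencephalon, 8 were expressed. Tcf7l2, a Wnt effector high in the thalamus, led with 46.0, 49.8 and 51.7 TPM, the only member in which WT 1 was lowest. The Iroquois genes Irx1, Irx2, Irx3 and Irx5 were all expressed, from 6.04 ± 2.37 TPM (Irx5) to 13.2 ± 4.94 TPM (Irx1), and in each WT 1 was highest and WT 2 lowest. Foxb1 measured 5.55 ± 1.38 TPM. Of 20 midbrain and rostral hindbrain factors, 9 were expressed (45.0%), all below 6 TPM on average. Among them were both Engrailed genes, En2 with 7.09, 3.81 and 6.15 TPM and En1 with 2.98, 1.57 and 2.49 TPM, and Gbx2 of the isthmus with 1.89 ± 0.393 TPM. Atoh1 and Ptf1a, which specify cerebellar neurons, were at 0.

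Hox genes, which mark the hindbrain and spinal cord, were expressed from 1 cluster. Of 39 Hox genes, 4 were expressed (10.3%), all of the Hoxa cluster, among them Hoxa5 (12.3, 9.43 and 9.36 TPM), Hoxa4 (6.90 ± 0.741 TPM) and Hoxa3 (3.70 ± 0.466 TPM). WT 1 was the highest and WT 3 the lowest library in all 4, though in Hoxa4 and Hoxa5 WT 2 and WT 3 were nearly equal. Hoxa2 and Hoxa7, of the same cluster, were low at 0.848 ± 0.263 and 0.856 ± 0.321 TPM. No gene of the Hoxb or Hoxd clusters had a count, and Hoxc9 alone of the Hoxc cluster had 1, in WT 2. Whether these factors were in the same cells was not tested, since the libraries are bulk RNA.

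**Figure D3:**
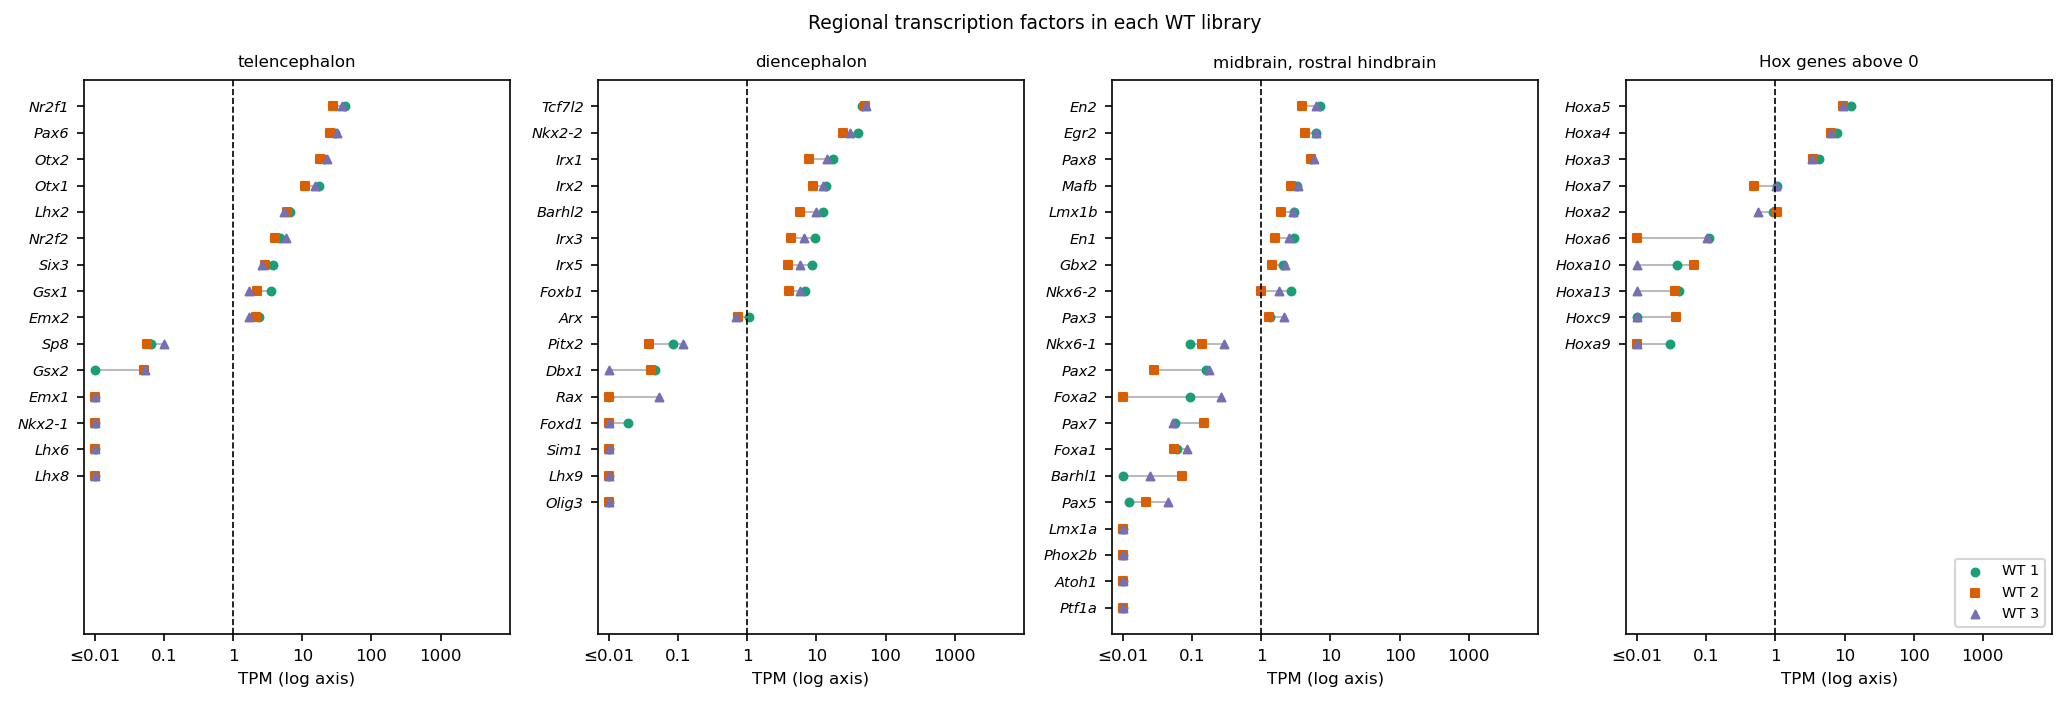
TPM (horizontal log axis; values under 0.01 are drawn at 0.01) of regional transcription factors in WT 1 (circles), WT 2 (squares) and WT 3 (triangles), with a dashed line at 1 TPM. Expressed members of the first 3 panels lie between 1 and about 50 TPM, and in the panel of Hox genes with any count only Hoxa genes reach 1 TPM.

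Receptors for EGF and FGF, the growth factors of stem cell culture, were expressed. Of 54 receptor tyrosine kinase genes, 31 were expressed (57.4%), close to the 56.1% of protein-coding genes. Egfr, the EGF receptor, measured 67.9, 77.4 and 86.8 TPM, so WT 1 was the lowest and WT 3 the highest library. Fgfr1 measured 166, 120 and 151 TPM, Fgfr3 86.1 ± 23.9 TPM and Fgfr2 22.1 ± 3.58 TPM, and Fgfr4 was near 0 with 1 to 3 counts. The collagen receptor Ddr1 was the highest of all with 410, 208 and 333 TPM. Next came Ntrk2 (214 ± 18.7 TPM), the BDNF receptor, whose range overlapped with that of Ddr1. Pdgfrb, Kdr and Tek, receptors of vessels and pericytes, were low, whereas Flt1, also of the endothelial list, was expressed at 8.44 ± 1.73 TPM.

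Of 36 growth factor ligands, 15 were expressed (41.7%), below the share of protein-coding genes. Ptn, pleiotrophin, stood far above the rest with 2706, 2684 and 2918 TPM. Its close relative Mdk (midkine) had 6, 4 and 0 counts, or at most 0.549 TPM. Whether the counting affected this value was not tested. Vegfa was the next highest with 228, 103 and 192 TPM, and Fgf1 and Hbegf followed Vegfb with 55.7 ± 5.69 and 35.0 ± 0.573 TPM. Besides Hbegf, the EGF receptor ligands Tgfa (14.1 ± 1.87 TPM) and Areg (2.78 ± 0.660 TPM) were expressed. Egf itself was low (0.921 ± 0.121 TPM), and Fgf2 measured 2.36 ± 0.495 TPM. Bdnf, the ligand of Ntrk2, measured 1.41 ± 0.0707 TPM.

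Notch pathway genes were mostly present, with 19 of 24 expressed (79.2%). The ligands Dll1 (25.9 ± 7.05 TPM), Jag1 (19.4 ± 2.99 TPM) and Dll3 (13.1 ± 4.91 TPM) were expressed, while Dll4 and Jag2 were low. Among the receptors, Notch1 measured 62.7, 33.9 and 59.8 TPM, Notch3 27.2 ± 8.64 TPM and Notch2 8.49 ± 1.61 TPM, and Notch4, of vessels, was low. Of the targets, Hes1 measured 51.5, 37.2 and 44.3 TPM and Hes5 28.2, 11.6 and 20.8 TPM. Hes5 had the largest CV of the stem cell list (41.1%), and its promoter is the one shown above with the TGGGAA match. In 17 of the 19 expressed genes of the pathway WT 2 was the lowest library, against 55.7% of all expressed genes. This was not particular to the pathway. WT 2 was also lowest in 8 of 9 expressed hedgehog genes, 16 of 19 astrocyte genes and 19 of 22 BAF genes. It was lowest in only 5 of 18 glutamate and GABA receptor genes. Lfng, a glycosyltransferase that modifies Notch, was the highest member at 233 ± 58.0 TPM.

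Of 15 Wnt receptors, 13 were expressed (86.7%), led by Fzd9 with 240, 141 and 182 TPM, above Fzd1 (51.5 ± 5.94 TPM) without overlap. The stem cell marker Lgr5 of other tissues measured 10.7 ± 0.769 TPM. Of 14 hedgehog pathway genes, 9 were expressed (64.3%), among them the receptors Smo at 79.8 ± 10.9 TPM and Ptch1 at 36.0 ± 4.55 TPM, with the co-receptor Gas1 at 126 ± 12.4 TPM. Of the ligands, Dhh was expressed with 7.03, 4.36 and 4.92 TPM, while Shh (0.365 ± 0.226 TPM) and Ihh (0.122 ± 0.0157 TPM) were low, as was the pathway's target Gli1 (7, 4 and 6 counts). Receptors for BMP and TGF-beta were expressed in 9 of 14 cases (64.3%), led by Bmpr1a (51.5 ± 11.9 TPM). This share and that of the hedgehog list lay near the 56.1% of protein-coding genes. In 7 of the 9 expressed BMP and TGF-beta receptors WT 1 was the lowest library, against 34.0% of all expressed genes. For the cytokines LIF and CNTF, Lifr measured 78.4 ± 11.4 TPM, Il6st 52.1 ± 5.72 TPM and Cntfr 28.0 ± 6.51 TPM, while Il6ra was low.

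Few genes of G protein-coupled receptors were expressed, 63 of 615 (10.2%). Adcyap1r1, the receptor of the peptide PACAP, measured 812, 626 and 872 TPM, and the adhesion receptor Adgrg1 (GPR56) 764, 528 and 749 TPM. The ranges of these 2 overlapped, though Adcyap1r1 was above Adgrg1 within each library. Gprc5b (450 ± 72.4 TPM) and the thrombin receptor F2r (196 ± 12.4 TPM) followed. Of 35 glutamate and GABA receptor genes, 18 were expressed (51.4%), near the 56.1% of protein-coding genes. Grm5, a metabotropic glutamate receptor, led with 81.8, 123 and 120 TPM, and the AMPA receptor subunits Gria2, Gria3 and Gria4 measured 77.9 ± 9.94, 75.1 ± 10.4 and 57.3 ± 5.40 TPM. The fourth AMPA subunit, Gria1, measured 10.9 ± 1.31 TPM. Of the NMDA receptor subunits, Grin3a measured 24.3, 25.4 and 28.0 TPM and Grin1, which every NMDA receptor needs, 3.39 ± 0.963 TPM, and Grin2a, Grin2b, Grin2c and Grin2d were low. In this list WT 1 was the lowest library for 13 of the 18 expressed genes, against 34.0% of all expressed genes.

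Chromatin genes were almost all expressed, against 56.1% of all protein-coding genes. All 10 histone acetyltransferases, all 18 histone deacetylases and sirtuins and all 21 Polycomb genes of the lists were expressed, as were 30 of 32 histone lysine methyltransferases, 27 of 28 JmjC and LSD1 demethylases and oxygenases, and 13 of 14 DNA methylation genes. Among the lysine methyltransferases, the highest were the H4K20 enzyme Kmt5a (171 ± 12.5 TPM) and Ezh2 (121 ± 7.97 TPM), the Polycomb H3K27 enzyme, which measured 112, 127 and 125 TPM. Its paralog Ezh1 stood at 5.62 ± 1.07 TPM. Prdm16 and Smyd1 were the 2 methyltransferase genes that were low. Among deacetylases, Hdac2 (241 ± 20.7 TPM) and Hdac1 (166 ± 6.24 TPM) led, with no overlap between them.

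Among erasers, Kdm1a (LSD1) was the highest at 105 ± 5.94 TPM, then the oxygenase Jmjd6 at 79.5 ± 15.4 TPM. Riox2 (Mina53), the JmjC oxygenase that is knocked out in some other samples of the series, measured 21.1, 16.6 and 19.9 TPM in these WT cells. It ranked among the middle of its list, above its relative Riox1 (13.3 ± 2.41 TPM), with no overlap. Of 9 protein arginine methyltransferases, 8 were expressed: Prmt1, the main source of asymmetric dimethylarginine, measured 348, 274 and 296 TPM, Prmt5, which makes the symmetric form, 121 ± 6.79 TPM and Carm1 57.1 ± 8.46 TPM. Prmt8, a neuronal paralog, had 0 counts. For DNA methylation, the maintenance enzyme Dnmt1 measured 118 ± 28.7 TPM, the de novo enzyme Dnmt3a 25.4 ± 4.63 TPM, Dnmt3b 1.25 ± 0.220 TPM and Dnmt3l 1 count in all. Tet3 (38.0 ± 6.84 TPM) was above Tet2 (6.35 ± 1.17 TPM) and Tet1 (3.94 ± 0.480 TPM).

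The BAF remodelling complex exchanges subunits when progenitors become neurons, and here the progenitor forms prevailed. Actl6a, the progenitor subunit BAF53a, measured 92.7, 99.8 and 102 TPM, and its neuronal counterpart Actl6b 3, 3 and 4 counts (0.190 ± 0.0323 TPM). Phf10 (115 ± 8.94 TPM) and Dpf2 (110 ± 9.41 TPM) were above the neuronal Dpf1 (24.8 ± 6.69 TPM) and Dpf3 (18.2 ± 2.36 TPM). Ss18 (76.8 ± 3.25 TPM) was above the neuronal Ss18l1 (8.33 ± 1.29 TPM). In none of these 3 exchanges did the libraries overlap. The neuronal Dpf1, Dpf3 and Ss18l1 were nonetheless expressed. Of the ATPases, Smarca4 (BRG1) measured 131, 80.0 and 117 TPM and Smarca2 (BRM) 40.1, 32.5 and 37.9 TPM.

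**Figure D4:**
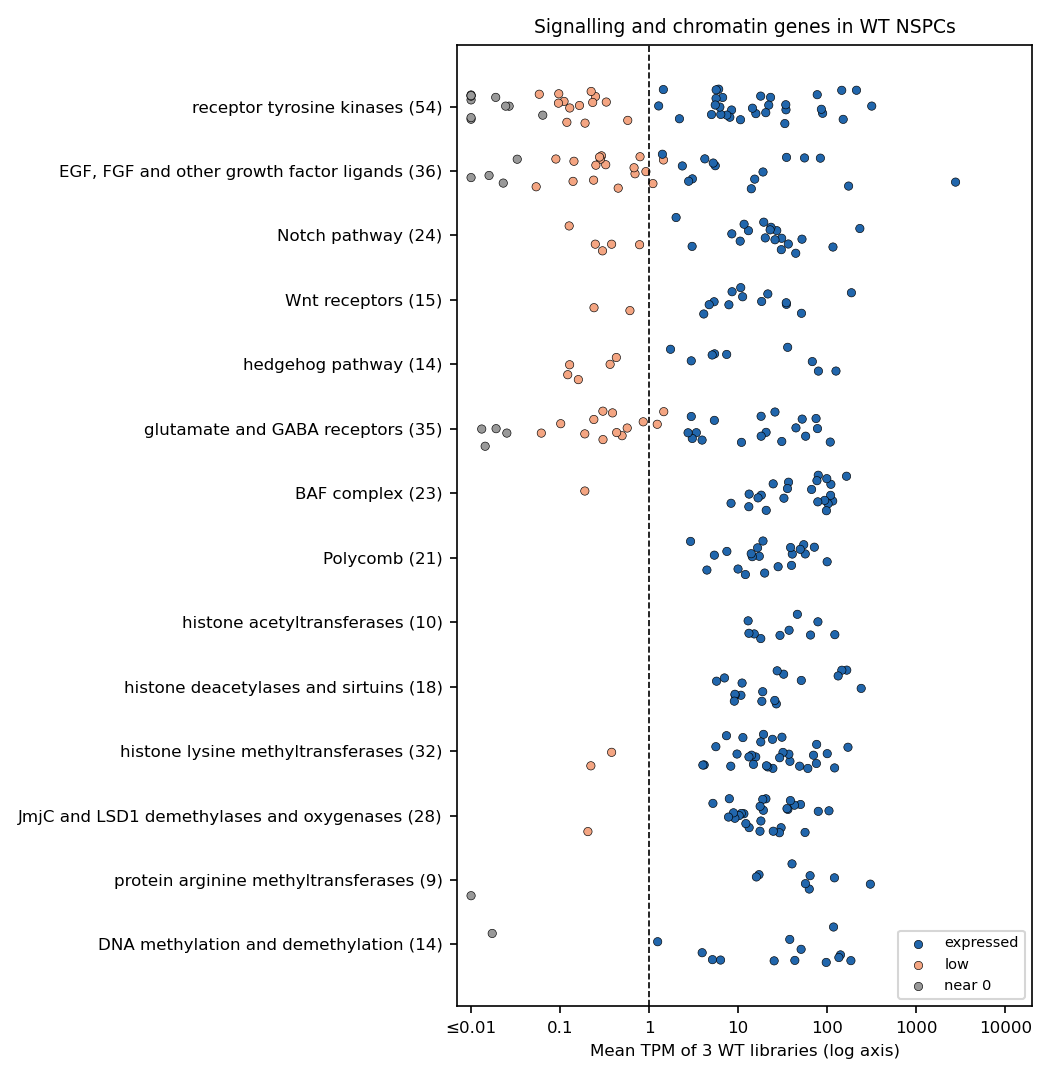
Mean TPM over the 3 WT libraries (horizontal log axis; values under 0.01 are drawn at 0.01) of each member of 14 lists of signalling and chromatin genes, 1 point per gene, coloured as expressed, low or near 0, with a dashed line at 1 TPM and the number of members in brackets. Receptor tyrosine kinase, growth factor ligand and transmitter receptor genes reach down to 0 or near it, the Notch, Wnt receptor and hedgehog lists down to between 0.1 and 1 TPM, whereas nearly all points of the chromatin lists lie between 1 TPM and the 306 TPM of Prmt1.

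Genes of the niche matrix and of the SOX family were described as well. Of 23 matrix genes, 19 were expressed, led after Ptprz1 by the brain proteoglycans Bcan (638, 352 and 518 TPM) and Ncan (420 ± 79.2 TPM). The ranges of Bcan and Ncan overlapped, though Bcan was the higher within each library. Hapln1 and Acan, of mature perineuronal nets, were low. Of 19 SOX genes, 12 were expressed (63.2%), near the 56.1% of protein-coding genes. Sox8 (147 ± 29.5 TPM), Sox6 (92.6 ± 8.79 TPM), Sox3 (72.6 ± 27.3 TPM) and Sox9 (47.2 ± 4.86 TPM) had lower means than Sox2. Sox17 and Sox14 had 0 counts. In the family of Fabp7, Fabp5 reached 1223 ± 77.1 TPM, Fabp3 2.55 ± 0.835 TPM, and Fabp1 and Fabp2 were at 0.

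Immediate early genes, which respond within minutes to stimulation, showed nearly the same order of libraries throughout. Of 16, 13 were expressed, WT 2 was the lowest library in all 13, and WT 1 the highest in 11, against 55.7% and 44.5% of all expressed genes. Jun measured 163, 80.5 and 121 TPM, Egr1 77.9, 55.2 and 69.0 TPM and Jund 84.1, 26.4 and 46.5 TPM. The median CV of these 13 genes was 25.3%.

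Over all 12985 expressed genes, the 3 libraries were close. The median CV was 14%, falling from 18.7% for genes with 1 to 3 TPM to 10.4% at 300 to 1000 TPM. The common biological CV by edgeR, which removes counting noise, was 16.6%, over the 14375 genes that edgeR's own filter kept. WT 1 and WT 2 were the least alike pair, with 491 genes (3.78%) over 2-fold apart, against 126 for WT 1 and WT 3 and 122 for WT 2 and WT 3. WT 3 was the middle library for 57.2% of expressed genes. Gene length moved with the difference between libraries. The median log2 ratio of WT 1 to WT 3 was 0.12 in the shortest of 4 equal length classes of genes, 0.04 and -0.04 in the next, and -0.15 in the longest. For WT 2 over WT 3 it went from -0.05 to -0.23. For WT 1 over WT 2, the least alike pair, it changed little until the longest class, with 0.17, 0.17, 0.15 and 0.09. The part of length or mitochondrial share in the spread of single genes was not tested.

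**Figure D5:**
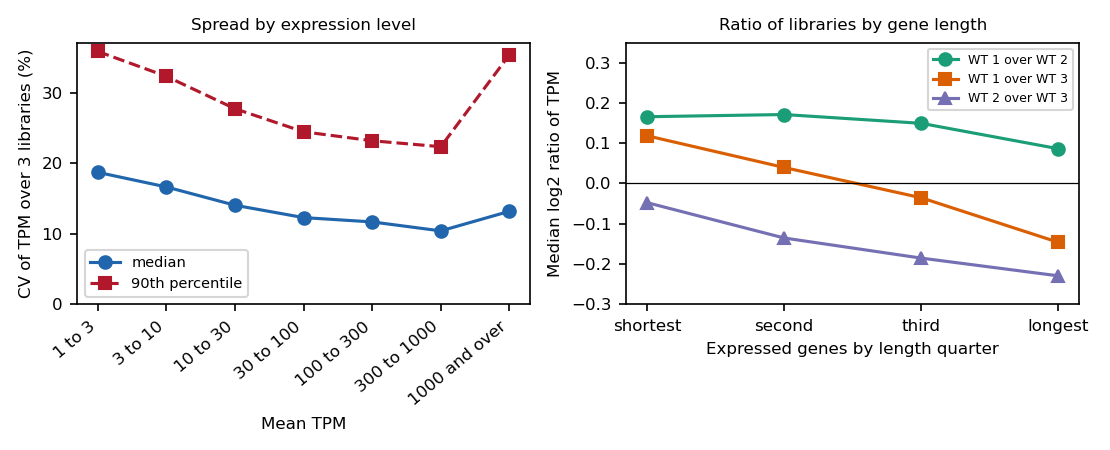
Left, median and 90th percentile of the CV of TPM over the 3 WT libraries (vertical axis, percent) for expressed genes by mean TPM. Right, median log2 ratio of TPM for each pair of libraries in 4 equal classes of expressed genes by length. The median CV falls from 18.7% to 10.4% before it rises in the highest class, and all 3 ratios are lower in the longest than in the shortest class.

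Named for their spread among genes with at least 10 TPM on average, Pam16l (20.3, 11.4 and 0 TPM), Rpl37rt (3.80, 144 and 72.8 TPM) and Srp54b (35.8, 7.35 and 13.9 TPM) had the largest CVs, 78.3% to 96.3%. All 3 are close copies of another gene, so their counts are uncertain. The next largest was that of Rnaseh2c, a subunit of RNase H2 (78.5, 27.4 and 35.3 TPM), followed by Zfp771 (20.3, 6.66 and 10.3 TPM), Scand1 (26.4, 8.24 and 14.8 TPM) and the AP-1 factor Jund, all with WT 1 highest. The stress cytokine Gdf15 measured 19.6, 8.03 and 9.09 TPM. Genes lowest in WT 1 relative to the other 2 libraries included Styx, Gulp1, Bmpr2, Ube3a and Cggbp1, with ratios of 0.518 to 0.567. At the other end, Acadm, an enzyme of fat oxidation, and the mismatch repair gene Msh6 had CVs of 0.128% and 0.195%. These are the smallest values of many genes measured in 3 libraries, and lie below counting error at their counts. They do not show that these genes are unusually stable.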

How the data were processed

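Poly(A) RNA of 3 WT NSPC libraries was sequenced from a stranded kit, per the labels' protocols. The table deposited by the authors holds expected counts per Ensembl gene, not scaled and partly not whole (8.71% to 9.74% of values). HISAT2, StringTie and GRCm39 are named, without versions, per the submitters' processing notes. Not given in the sources used here are the program that counted, whether it used strand, the annotation's release and how the deposited gene length was defined, so overlapping and antisense genes may share reads.

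TPM were computed from the deposited counts and lengths over all 57180 genes, 525 of them without a symbol. The biological CV came from edgeR 4.0.16 (R 4.3.3; counts rounded, filterByExpr, TMM, intercept only) and the estimate was tested on simulated data. Sequences and biotypes came from RefSeq (GRCm38.p6), and 7 of 9 promoters sought (not Hes1 and Olig1) were matched. Transcription factor and receptor classes came from GO terms of the deposited table.

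The 4 markers and 39 lists (716 symbols) were chosen with earlier results of these data known. Named genes were the 25 highest nuclear genes other than ribosomal protein and predicted genes, the 15 highest transcription factors by GO term, the 10 highest G protein-coupled receptors, list members, and those with the largest or smallest CV or ratio of WT 1 to the other libraries. The predicted copies of mitochondrial genes were named after their values were seen. Alternatives were other thresholds, CPM, TPM over nuclear genes, other scalings and filters, and leaving out each library. CUT&Tag and knockout data were not used here, and some list members are counted but not reported one by one.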

Additional observations from a re-analysis of the deposited data

How the results depend on the processing

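No test between groups was made, so the alternatives bear on levels and counts. No paired analysis was possible because a single group is described.

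The number of expressed genes ranged from 10332 (threshold of 5 TPM) to 14138 (0.5 TPM), and was 13215, 13274 and 13074 without WT 1, WT 2 or WT 3. The number of expressed transcription factor genes ranged from 335 to 469 under the same thresholds. Of 39 lists, 12 had a count more than 1.5 times lower at 5 TPM: growth factor ligands 8, Hox genes 2, diencephalon factors 5, ependymal and choroid plexus 1, hedgehog pathway 5, immediate early 8, microglia 1, midbrain and rostral hindbrain factors 1, neuron 5, oligodendrocyte lineage 7, pluripotency 0 and telencephalon factors 5. With CPM in place of TPM, the ependymal and choroid plexus list fell to 2. No list moved by over 1.5 times under the other alternatives, leaving out a library included.

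The 100 highest genes held 24.1% of TPM over nuclear genes only, and 20.9% without the mitochondrial genes and their predicted copies, an alternative chosen after seeing the data. Under that last alternative Tnc was 149 TPM. The common biological CV was 18.9% with no filter on low counts, and 13.0% to 21.9% when a library was left out, lowest without WT 1 and highest without WT 3. The median CV ranged from 9.87% (without WT 2) to 16.1% (without WT 3). Both spreads thus depend on which pair remains, WT 1 and WT 2 being the least alike. Depth limits only genes with few counts: for Nes, 3 counts equal 0.0473 TPM.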

Other observations

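Long noncoding RNAs were few among the abundant transcripts. The genes below were chosen after their values were seen. RefSeq lncRNAs were ranked with predicted and clone-named ones, and those whose symbol differs from that of RefSeq, left out. Malat1, a nuclear RNA found in most tissues, led them with 411, 347 and 483 TPM, followed by Tug1 with 162, 267 and 222 TPM. The ranges of these 2 genes did not overlap, and WT 2 was the lowest library for Malat1 and the highest for Tug1. Sox2ot, the transcript that overlaps Sox2, was expressed at 9.20, 9.54 and 10.0 TPM, and Firre, an X-linked RNA of nuclear organisation, at 17.4 ± 4.45 TPM. Neat1, the scaffold of paraspeckles, measured 12.6, 8.35 and 12.9 TPM. At the Hoxa cluster, Hotairm1 was expressed at 3.11, 3.13 and 3.90 TPM, while Hottip and Hoxa11os at its far end, and Hotair in the Hoxc cluster, had 0 counts. Without a stated strand setting, reads of antisense partners cannot be told apart.

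The Y-linked genes Eif2s3y (88.4 ± 16.1 TPM), Ddx3y (15.3 ± 2.28 TPM), Kdm5d (12.2 ± 1.42 TPM) and Uty (7.80 ± 1.82 TPM) were expressed in all 3 libraries, and Xist, the RNA of the inactive X chromosome, had 3 to 5 counts in each.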
